A study of Bos taurus with 31 samples.

Results

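The 95 genes described here are those that took the most sequencing reads in the liver of the bovine fetus, out of 27607 genes in the count table. They were chosen by level: counts were divided by the library total and scaled to a total of 1e+06 (CPM), the 100 genes with the highest mean over 31 libraries were taken, and 5 identifiers that the rule sets aside were dropped. The rule lists 18 identifiers in all, of which the other 13 lay outside the 100. Because the level chose the genes, their levels are a description, whereas differences between groups and spread between fetuses were not used in the choice. For a gene at the lower edge of the choice, however, high levels in some groups can decide its place.

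RNA came from the livers of 31 female fetuses on day 83 of gestation carried by Angus-cross heifers and sired by a single bull. The breeding group of each dam was not given per sample. Every dam ate a mixed ration based on hay of triticale, silage and ground kernels of corn, and distillers grains with solubles. NoVTM_LG dams (n = 8) received that ration alone and were fed for a low gain of 0.28 kg per day. VTM_LG dams (n = 8) were fed for the same gain and also received 0.45 kg per day of ground corn carrying a commercial vitamin and mineral premix, begun before breeding. NoVTM_MG dams (n = 8) received no premix, and from breeding were fed to gain 0.79 kg daily, a moderate rate, with a protein and energy supplement of corn, distillers grains, wheat midds, fish oil, urea and ethoxyquin. VTM_MG dams (n = 7) received the premix and the protein and energy supplement. In what follows, supplementation means the premix together with the ground corn that carried it. Gain means MG against LG, that is the rate of gain together with the protein and energy supplement. Within each of these the parts cannot be told apart.

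The fetal liver secretes the proteins of the plasma and, at this stage of gestation, also houses the formation of blood cells. In mammalian liver the most abundant RNAs usually include those for secreted plasma proteins, for the proteins of the ribosome, and those made from mitochondrial DNA. Which of the 95 genes belong to which of these classes was not determined, since the count table gives Ensembl identifiers with no names and 0 of them are listed in the reference gene table of 37063 genes that was used. The tissue label could not be set against liver or blood cell markers for the same reason, and genes are given by identifier only, with no sequence. Counts were not divided by transcript length, so a gene that drew more reads than another need not have had more RNA molecules.

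The libraries held 13062894 to 18458776 counts each. The 95 genes together took 39.3% ± 1.498 of them (SD, n = 31), between 36.2% and 42.0% in single libraries. The share was 39.5% ± 1.53 for the 8 NoVTM_LG fetuses, 39.1% ± 1.30 for the 8 of VTM_LG, 39.6% ± 1.36 for the 8 of NoVTM_MG and 38.9% ± 1.99 for the 7 of VTM_MG, so the group means lay closer together than the fetuses within a group. The 5 genes set aside took a further 9.02% ± 0.758, and the next 100 genes by mean level took 6.21% ± 0.275. Reads were concentrated in the first few genes: the first 5 of the 95 held 22.7% ± 1.23 of all counts, the first 20 held 29.9% ± 1.42 and the first 50 held 35.0% ± 1.42.

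ENSBTAG00000000522 drew the most reads, at 101265 ± 12125 CPM (SD, n = 31). In NoVTM_LG it ranged from 95986 through a median of 108395 to 114441 CPM, in VTM_LG from 54767 through 94957 to 116635, in NoVTM_MG from 91740 through 102049 to 114378, and in VTM_MG from 87146 through 106501 to 118597. The groups overlapped throughout, and the value of 54767 CPM in VTM_LG replicate 4 stood below all other libraries. ENSBTAG00000038748 followed at 60990 ± 9351 CPM, and here the same library stood above the others, at 103383 CPM. ENSBTAG00000017131 averaged 31224 ± 4010 CPM and was lowest in that library, at 15923 CPM. ENSBTAG00000043561, at 16661 ± 2398 CPM, and ENSBTAG00000051412, at 16608 ± 3857 CPM, were both highest in it, at 27259 and 33077 CPM.

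Below these 5 genes the level dropped to 9073 CPM for the sixth, and from there it fell in smaller steps. There were 10 genes with a mean of at least 5000 CPM, 27 with at least 2000 CPM and 67 with at least 1000 CPM, which left 28 under 1000 CPM. The sixth to eighth were ENSBTAG00000054499 at 9073 CPM, ENSBTAG00000017531 at 6651 CPM and ENSBTAG00000022120 at 6318 CPM. ENSBTAG00000054745 and ENSBTAG00000015685, at 5634 and 5475 CPM, closed the first 10. The next 10 ran from ENSBTAG00000014534 (4702 CPM), ENSBTAG00000017294 (4506 CPM), ENSBTAG00000053735 (4355 CPM) and ENSBTAG00000009212 (4285 CPM) to ENSBTAG00000011184 (4150 CPM), ENSBTAG00000003212 (4020 CPM) and ENSBTAG00000013718 (3545 CPM). ENSBTAG00000010123 (3440 CPM), ENSBTAG00000014075 (3373 CPM) and ENSBTAG00000020406 (2587 CPM) completed them.

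**Figure D1:**
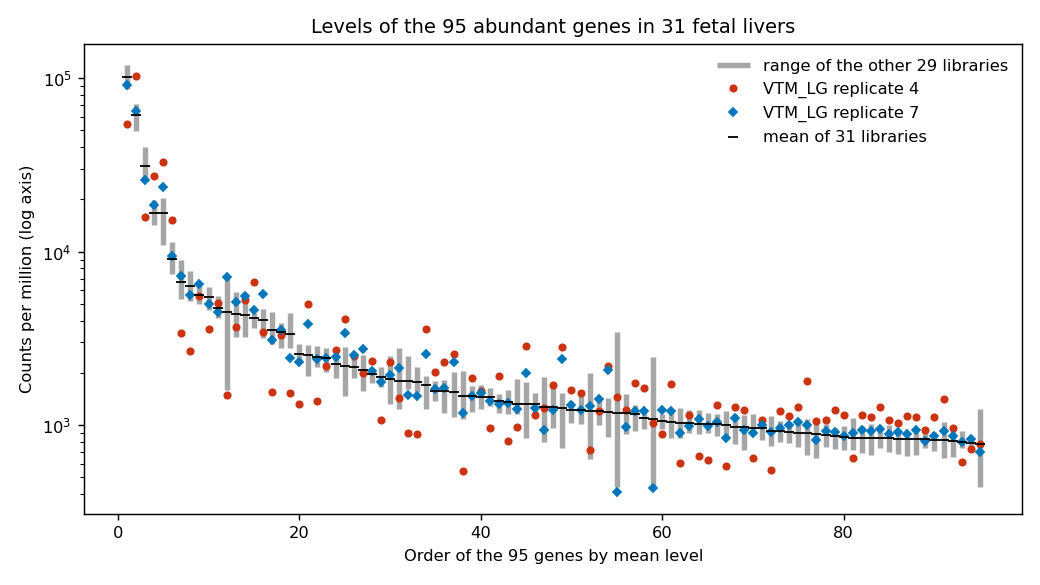
CPM of the 95 genes (log axis) in order of their mean. Grey bars give the range of 29 libraries, dashes the mean of all 31, red points VTM_LG replicate 4 and blue diamonds VTM_LG replicate 7. The red points lie outside the grey bar for 71 of the 95 genes.

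The lower edge of the choice was not sharp. Just inside it were ENSBTAG00000012012, at 794 ± 33.3 CPM, and ENSBTAG00000000888, at 778 ± 176 CPM. Just outside were ENSBTAG00000019648, at 774 ± 71.5 CPM, and ENSBTAG00000007148, at 772 ± 81.7 CPM. Of the 95 genes, 57 were among the 100 highest in all 31 libraries, 94 were so in at least 16 libraries, and ENSBTAG00000000888 was so in 15. That gene was also the 1 lost when the ranking used the median CPM or the mean without VTM_LG replicates 4 and 7. Its mean was higher in each VTM group than in either NoVTM group. Its contrasts of VTM with NoVTM are therefore not independent of the choice. When the 100 highest were taken by the mean of a single group, 94 of the 95 were among them by the NoVTM_LG mean, 91 by that of VTM_LG, 92 by that of NoVTM_MG and 93 by that of VTM_MG, and 89 were among them in every group. The lowest rank of any of these genes in any library was 228, for ENSBTAG00000054661.

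The spread between fetuses was far wider than the error of counting. Every gene had at least 6303 counts in every library. The coefficient of variation (CV) from counting alone, taken per gene over all libraries, was at most 0.959%. The observed CV over the 31 libraries ran from 4.196% to 59.4% with a median of 11.3%, and was at least 4.52 times the counting CV for each gene. The median CV was 11.1% for the next 100 genes by mean level and 16.03% over all genes tested. The genes tested include many of far lower count, and their counting CV was not computed. The gap to all genes therefore does not show that the 95 genes were steadier. Without VTM_LG replicates 4 and 7, which are described below, the median CV of the 95 genes was 8.47%, that of the next 100 was 8.46% and that of all genes tested was 14.8%.

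The steadiest genes within groups, by the SD of log2 CPM, were ENSBTAG00000012012 (0.0621), ENSBTAG00000004258 (0.0779), ENSBTAG00000001553 (0.0873), ENSBTAG00000009535 (0.0892) and ENSBTAG00000005726 (0.0973). ENSBTAG00000012012 ranged over all 31 fetuses only from 732 to 851 CPM, a CV of 4.196%. Its mean was 807 ± 38.6 CPM for the 8 NoVTM_LG fetuses, 788 ± 42.6 for the 8 of VTM_LG, 789.6 ± 27.9 for the 8 of NoVTM_MG and 789 ± 20.7 for the 7 of VTM_MG, and all 4 groups overlapped.

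At the other end stood 3 genes with the widest spread between fetuses within groups. ENSBTAG00000017294 had an SD of 0.68 on the log2 scale within groups, ENSBTAG00000054661 one of 0.67 and ENSBTAG00000043570 one of 0.59. The next were ENSBTAG00000003564 at 0.38 and ENSBTAG00000043558 at 0.37. ENSBTAG00000017294 ran from 1591 through a median of 4100 to 7108 CPM in NoVTM_LG, from 1497 through 3333 to 7155 in VTM_LG, from 3370 through 5531 to 6495 in NoVTM_MG and from 2066 through 5180.5 to 7307 in VTM_MG. The ranges of all 4 groups overlapped, and the lowest NoVTM_MG fetus was above the lowest fetuses of the other groups. Its log2 fold change was -0.08 (95% interval -0.51 to 0.36) for supplementation and 0.31 (-0.13 to 0.74) for gain, with edgeR adjusted p-values of 1.00 and 0.722.

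ENSBTAG00000043570 and ENSBTAG00000054661 varied together. Over the 31 libraries their log2 CPM had a Pearson r of 0.895 and a Spearman rho of 0.844, each with a permutation p of 1e-05, the smallest that 100000 permutations can give (adjusted p 0.000129 and 0.00019 over all 4465 pairs). The r was 0.889 without VTM_LG replicates 4 and 7 and 0.866 without the 2 libraries farthest from the median of ENSBTAG00000054661. Group means were not removed, so these values mix differences between groups with those between fetuses of a group. Neither was closely tied to ENSBTAG00000017294, with an r of 0.211 and 0.146 (rho 0.181 and 0.137, permutation p 0.254 and 0.433 for r, 0.326 and 0.461 for rho, adjusted p 0.347 and 0.533 for r, 0.5263 and 0.643 for rho). Without the 2 libraries farthest from the median of ENSBTAG00000017294 both of these r values were 0.41. Without VTM_LG replicates 4 and 7 they were 0.331 and 0.304. The clustering described below placed these 3 genes in 1 small set, with a median r of 0.331.

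**Figure D2:**
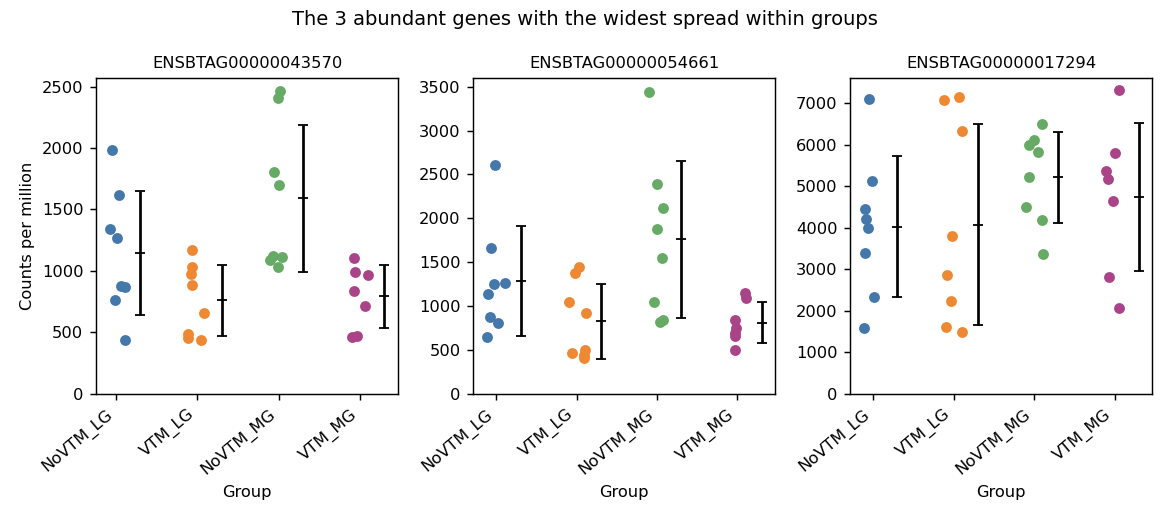
CPM of ENSBTAG00000043570, ENSBTAG00000054661 and ENSBTAG00000017294 in each fetus by group, with the group mean ± SD in black. The highest VTM fetus has 1170 CPM of ENSBTAG00000043570, and 4 fetuses of each NoVTM group lie above it.

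VTM_LG replicate 4 recurs in these values. It was set apart together with VTM_LG replicate 7, a choice made from earlier results of these data. Both were kept in the comparisons of groups, and values without them are given beside many of the results. In VTM_LG replicate 4, 39 of the 95 genes differed by at least 1.5-fold from their median over all libraries, 17 above it and 22 below. In VTM_LG replicate 7 there were 10, 8 above and 2 below. In the other 29 libraries the count was 0 to 4. Replicate 7 stood apart far less than replicate 4. The median absolute deviation on the log2 scale was 0.468 in replicate 4, 0.157 in replicate 7 and at most 0.149 in the other 29. By extremes, VTM_MG replicate 4 was the lowest of the 31 libraries for 14 genes and the highest for 4. For VTM_LG replicate 7 these counts were 2 and 6. Set against the range of those 29 libraries, replicate 4 lay above it for 44 genes and below it for 27, and replicate 7 lay above it for 17 and below it for 8. The 29 libraries define that range, so none of them can lie outside it. No such count was made for any other library left out, so these counts have no baseline. Their totals of 13576508 and 16360774 counts were within the range of the other libraries, and the 95 genes together took 40.8% and 40.3% of the counts, also within that range. In RNA from whole tissue, fewer cells of a type and less RNA per cell cannot be told apart. Markers of cell types could not be matched to identifiers, so their part in these values was not tested.

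**Figure D3:**
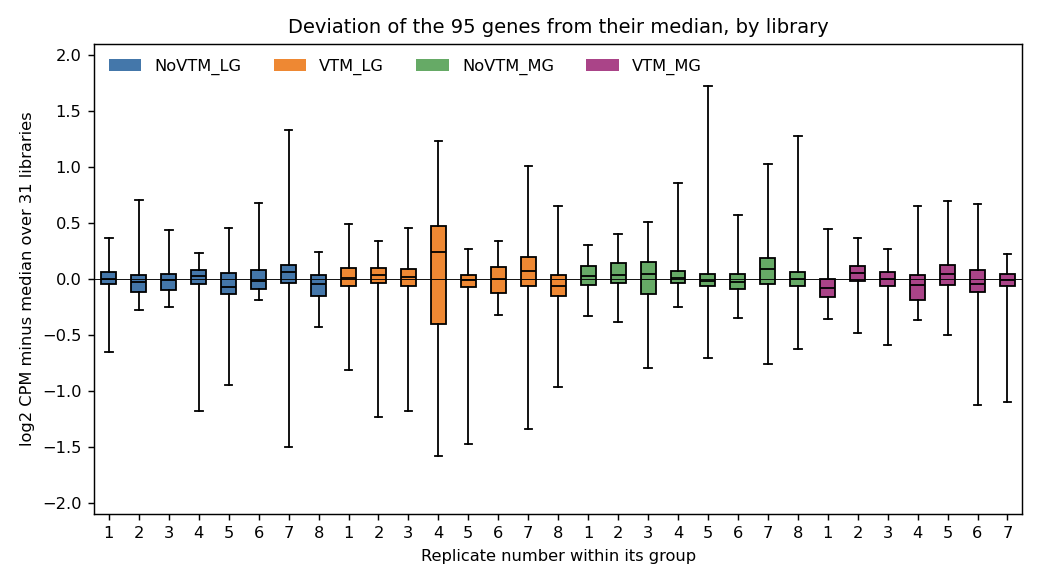
Deviation of the 95 genes from their median over the 31 libraries, on the log2 CPM scale, for each library by group and replicate number. Boxes span the quartiles with the median as a line, and whiskers reach the lowest and highest gene. The box of VTM_LG replicate 4 is the widest, with 39 genes at least 1.5-fold from their median.

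To describe how the abundant genes varied together, the 95 genes were grouped by average-linkage clustering of their correlations over the 29 other libraries. The cut at a mean r of 0.3 gave 6 sets of 5 or more genes. Such clustering can return sets from any data. VTM_LG replicates 4 and 7 were not used in forming the sets, which carry no test. Set 1 held 33 genes, led by ENSBTAG00000038748 and ENSBTAG00000054499 (median r 0.609 between its genes). Set 2 held 18 genes, led by ENSBTAG00000000522 and ENSBTAG00000015685 (median r 0.446). Set 3 held 15 genes, led by ENSBTAG00000051412 and ENSBTAG00000011184 (median r 0.495). Set 4 held 8 genes and had the highest median r of these sets, 0.655, while sets 5 and 6 held 6 and 5 genes. In sets 1 to 6 the lowest r of any pair was -0.073, 0.069, -0.0037, 0.24, 0.019 and 0.33. Some genes of the same set thus hardly varied together. All libraries share the scaling to a fixed total, which ties the genes to each other.

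Set 4 consisted of ENSBTAG00000043561, ENSBTAG00000043560, ENSBTAG00000043556, ENSBTAG00000043584, ENSBTAG00000043550, ENSBTAG00000043568, ENSBTAG00000043558 and ENSBTAG00000043577. Together they took 2.74% ± 0.234 of the counts in the 29 libraries (range 2.28% to 3.26%), 5.04% in VTM_LG replicate 4 and 3.71% in VTM_LG replicate 7. Each of the 8 genes was above the range of the 29 libraries in replicate 4, and 7 of them were so in replicate 7, the exception being ENSBTAG00000043561. The median gene stood at 2.03 times its median over the 29 libraries in replicate 4 and at 1.59 times in replicate 7. ENSBTAG00000043558 was the farthest, at 2814 CPM in replicate 4 and 2412 CPM in replicate 7 against a range of 741 to 1532 CPM.

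Set 2 went the other way in VTM_LG replicate 4. All 18 of its genes were below their median over the 29 libraries there and 17 were below the whole range, with the median gene at 0.624 times its usual level. Their joint share was 7.53% against 13.7% ± 1.02 in the 29 libraries (range 11.9% to 15.5%). Much of that share was ENSBTAG00000000522, which took 5.48% of counts in replicate 4 against 10.3% ± 0.852 in the 29 libraries. ENSBTAG00000013718 was at 1544 CPM against 2949 to 4460 CPM, and ENSBTAG00000014075 was at 1529 CPM against 2767 to 4415 CPM. In VTM_LG replicate 7 the shift was small, with 14 of the 18 genes below the median, 4 below the range, and a joint share of 12.3%. ENSBTAG00000003212 of this set was instead above the range in replicate 7, at 5678 CPM against 3188 to 4681 CPM.

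Sets 1 and 3 were high in VTM_LG replicate 4. In set 1, 30 of 33 genes were above the median and 25 above the range, with the median gene at 1.30 times its usual level and a joint share of 16.9% against 11.3% ± 0.809. Much of that share was ENSBTAG00000038748, at 103383 CPM against a median of 58753 CPM. ENSBTAG00000017531 was the gene of this set below the range, at 3409 CPM against 5306 to 8959 CPM. In set 3, 15 of 15 genes were above the median and 11 above the range, and the joint share was 5.87% against 3.33% ± 0.283. Here much of the share was ENSBTAG00000051412, at 33077 CPM against a median of 16098 CPM. Sets 5 and 6 were low, with 6 of 6 and 5 of 5 genes below the median, the farthest being ENSBTAG00000022120 at 2665 CPM against 5202 to 7768 CPM and ENSBTAG00000008505 at 541 CPM against 1088 to 2052 CPM. The total share of the 95 genes was thus near its usual level in replicate 4 while its makeup differed. Other shares moved there: the 5 genes set aside took 5.75% against 9.13% ± 0.470 in the 29 libraries, below their range. The next 100 genes took 7.40% against 6.16% ± 0.167, above the range. With ENSBTAG00000000522 taken out of genes and totals, the rest of the 95 took 37.3% against 32.2% ± 1.21, also above it. The 100 highest genes together took 46.5%, within the range.

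**Figure D4:**
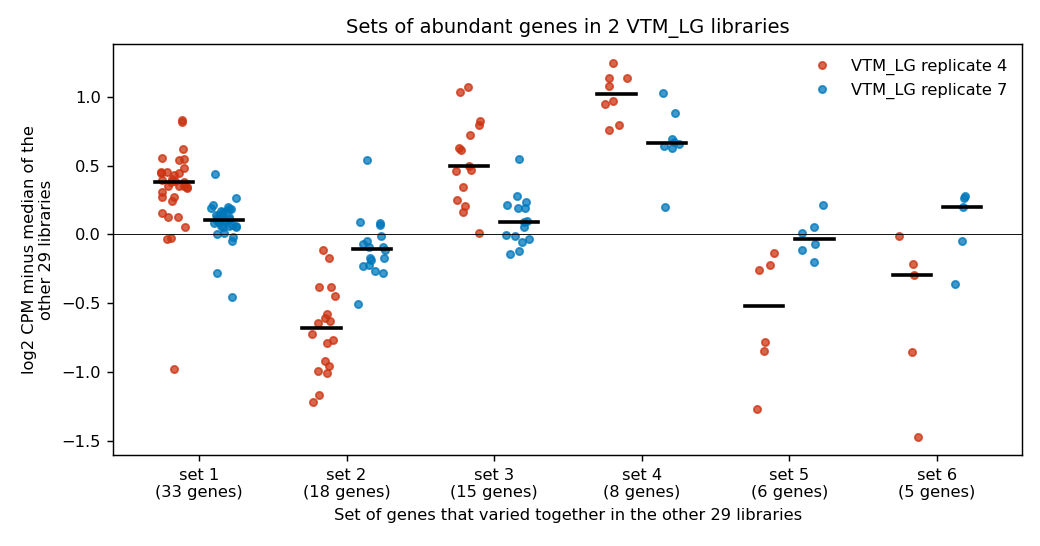
Level of each gene of the 6 sets in VTM_LG replicates 4 (red) and 7 (blue), as log2 CPM minus the median of the other 29 libraries, with the median of each set as a black line. Set 4 is high in both libraries, at medians of 1.02 and 0.67, and set 2 is low in replicate 4, at -0.68.

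Pairs of genes were also tested over all 31 libraries. Of 4465 pairs, 2000 passed an adjusted permutation p of 0.05 for Pearson's r, 1157 positive and 843 negative, and without VTM_LG replicates 4 and 7 there were 892, 610 positive and 282 negative. With libraries scaled on the genes outside the 100 most abundant, 2111 passed, 1611 positive and 500 negative, so the split by sign depended on the scaling. The closest positive pairs were ENSBTAG00000003229 with ENSBTAG00000014518 (r 0.954, rho 0.935), ENSBTAG00000005211 with ENSBTAG00000031723 (r 0.954, rho 0.955) and ENSBTAG00000043558 with ENSBTAG00000043577 (r 0.954, rho 0.858). Each had permutation p-values of 1e-05 (adjusted 0.000129 for r and 0.00019 for rho), and r was 0.947, 0.919 and 0.884 without the 2 libraries farthest from the median of the first gene. The most negative pairs were ENSBTAG00000011184 with ENSBTAG00000020406 (r -0.904, rho -0.588, permutation p 2e-05 and 0.00061, adjusted 0.000226 and 0.00526) and ENSBTAG00000008505 with ENSBTAG00000005296 (r -0.891, rho -0.811, permutation p 1e-05 for each, adjusted 0.000129 and 0.00019). For the former, r was -0.56 without the 2 farthest libraries, which were VTM_LG replicates 4 and 7, so its size rested in part on them; for the latter it was -0.80.

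Maternal diet was then compared over the whole table of 14228 genes tested with the quasi-likelihood test of edgeR, which fits counts with 1 mean per group. Fold changes are from that fit, in which libraries were scaled by TMM, and p-values were adjusted over all genes tested by the Benjamini-Hochberg method. The question was whether the premix with its carrier, moderate gain with its supplement, or both together, went with other transcript levels in the fetal liver. All 95 genes were tested, and 0 of them passed an adjusted p of 0.05 in any of the 9 contrasts, nor in DESeq2 or limma voom.

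For gain averaged over supplementation, 0 of the 95 genes passed, beside 0.0211% of all genes tested. At an unadjusted edgeR p under 0.05 there were 7, or 7.37% of the 95 genes, beside 7.82% of all genes tested, and 2 of them were higher (all genes 3.61%) and 5 lower (all genes 4.21%) in MG. The counts were 11 in DESeq2 (all genes 8.05%) and 11 in limma voom (all genes 8.76%). ENSBTAG00000009212 had the smallest p. It ranged from 4063 through a median of 4788 to 4981 CPM in NoVTM_LG, from 3225 through 4893 to 5747 in VTM_LG, from 3408 through 3753 to 4028 in NoVTM_MG and from 3292 through 3979 to 4718 in VTM_MG. The lowest NoVTM_LG fetus was above the highest NoVTM_MG fetus, while VTM_LG and VTM_MG overlapped, and all 15 MG fetuses were below the LG median. The log2 fold change was -0.25 (SE 0.0791, edgeR adjusted p = 0.559), and it was -0.20 without VTM_LG replicates 4 and 7.

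ENSBTAG00000043560, of set 4, was the next lower gene in MG, with means of 2745 ± 722 CPM over 16 LG fetuses and 2328 ± 211 CPM over 15 MG fetuses, and a log2 fold change of -0.23 (edgeR adjusted p = 0.624). Without VTM_LG replicates 4 and 7 its log2 fold change was -0.10 (adjusted p = 0.963). The higher genes with the smallest p were ENSBTAG00000022120 (log2 fold change 0.17, edgeR adjusted p = 0.624) and ENSBTAG00000007540 (0.13, adjusted p = 0.634). Leaving out VTM_LG replicates 4 and 7 gave 0.12 and 0.11. Over the 95 genes, 52 had a higher and 43 a lower fitted value in MG, and the median log2 fold change was 0.0065, against -0.0012 over all genes tested. Without VTM_LG replicates 4 and 7, 2 genes were at an unadjusted p under 0.05 in place of 7, beside 4.94% of all genes. Leaving out 1 library at a time gave from 3 genes, without VTM_LG replicate 4 (all genes 6.35%), to 18, without VTM_LG replicate 1 (all genes 8.88%).

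For supplementation averaged over gain, 0 of the 95 genes passed in edgeR, beside 0% of all genes tested. At an unadjusted p under 0.05 there were 3, all lower in VTM, or 3.16% beside 2.9% of all genes, of which 1.52% higher and 1.38% lower, and DESeq2 (all genes 2.94%) and limma voom (all genes 3.83%) also gave 3 each. Leaving out VTM_LG replicate 1 gave 6 (all genes 4.17%) and leaving out NoVTM_LG replicate 1 gave 2 (all genes 2.64%), and leaving out VTM_LG replicates 4 and 7 gave 4 beside 3.51% of all genes. Here ENSBTAG00000043570 and ENSBTAG00000054661 stood apart from the other 93 genes, whose log2 fold changes lay between -0.15 and 0.22. ENSBTAG00000043570 ranged from 435 through a median of 1075 to 1985 CPM in NoVTM_LG, from 435 through 769 to 1170 in VTM_LG, from 1030 through 1410 to 2465 in NoVTM_MG and from 461 through 836 to 1108 in VTM_MG. Above the highest VTM fetus lay 4 fetuses of each NoVTM group, the groups otherwise overlapped, and all 15 VTM fetuses were below the NoVTM median. Its mean ± SD was 1367 ± 581 CPM over the 16 NoVTM fetuses and 775 ± 265 CPM over the 15 VTM fetuses, a log2 fold change of -0.82 (SE 0.192, 95% interval -1.21 to -0.43, unadjusted p = 0.000153, adjusted p = 0.435 in edgeR).

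ENSBTAG00000054661 ranged from 645 through a median of 1195 to 2610 CPM in NoVTM_LG, from 409 through 709 to 1446 in VTM_LG, from 819 through 1711 to 3442 in NoVTM_MG and from 500 through 746 to 1143 in VTM_MG, and the groups overlapped. Its mean ± SD was 1520 ± 787 CPM over the 16 NoVTM fetuses and 817 ± 341 CPM over the 15 VTM fetuses, where 13 of 15 fetuses were below the NoVTM median (edgeR log2 fold change -0.91, SE 0.222, 95% interval -1.36 to -0.45, adjusted p = 0.629). Since these genes varied together across fetuses, they are not 2 independent observations. Without VTM_LG replicates 4 and 7 the log2 fold changes were -0.82 and -0.95, and over the 39 other settings they stayed within -0.89 to -0.73 and within -0.9996 to -0.78. The edgeR, DESeq2 or limma voom adjusted p was between 0.128 and 1.00 for each in those settings, so neither passed.

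Among genes with a higher fitted value in VTM, ENSBTAG00000043558 (log2 fold change 0.22) and ENSBTAG00000000888 (0.15) had the smallest p, each with an edgeR adjusted p of 1.00. The latter lay at the edge of the choice and entered it through its VTM levels, so its direction carries no support. The value of ENSBTAG00000043558, a gene of set 4, was 0.02 without VTM_LG replicates 4 and 7. The fitted value was higher in VTM for 32 genes and lower for 63, with a median log2 fold change of -0.01 beside -0.0008 over all genes tested.

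The interaction sets the VTM minus NoVTM difference in MG against that in LG. In edgeR 0 of the 95 genes passed, beside 0% of all genes. At an unadjusted p under 0.05 there were 12, 2 positive and 10 negative, or 12.6% beside 10.7% of all genes (4.78% positive, 5.88% negative). DESeq2 gave 15 (all genes 11%) and limma voom 19 (all genes 12.3%). In edgeR there were 27 without VTM_LG replicate 8 (all genes 15%) and 8 without VTM_MG replicate 4 (all genes 8.49%). ENSBTAG00000004258 had the smallest p (-0.23 on the log2 scale, SE 0.075, edgeR adjusted p = 0.431), followed among negative values by ENSBTAG00000026327 (-0.31). ENSBTAG00000005122 (0.34) and ENSBTAG00000008505 (0.46) led the positive values. In the order named, these genes were at -0.19, -0.23, 0.24 and 0.32 without VTM_LG replicates 4 and 7. The median over the 95 genes was -0.13, beside -0.0046 over all genes tested, and it was -0.03 without VTM_LG replicates 4 and 7, where 7 genes were at an unadjusted p under 0.05 beside 6.44% of all genes. For ENSBTAG00000043570 and ENSBTAG00000054661 the interaction was -0.42 (95% interval -1.19 to 0.36) and -0.48 (-1.38 to 0.41), so a difference between the levels of gain was not shown.

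**Figure D5:**
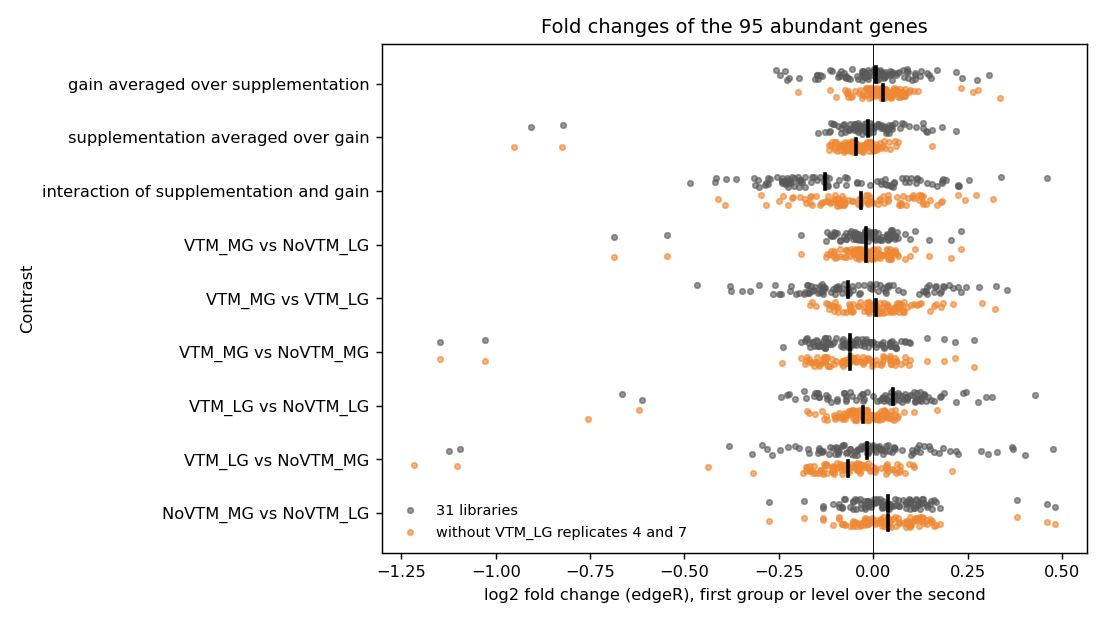
Log2 fold changes of the 95 genes in the 9 contrasts, with all 31 libraries in grey and without VTM_LG replicates 4 and 7 in orange, and medians as black lines. The leftmost points in the supplementation contrast, at -0.91 and -0.82, are ENSBTAG00000054661 and ENSBTAG00000043570.

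Of the pairwise contrasts, VTM_MG against VTM_LG had the most of these genes at an unadjusted edgeR p under 0.05. There were 21 of 95, or 22.1%, beside 14.8% of all genes, with 7 higher (all genes 7.22%) and 14 lower (all genes 7.58%) in VTM_MG, and 0 passed the adjusted threshold, beside 0% of all genes. DESeq2 gave 23 (all genes 15%) and limma voom 14 (all genes 11.4%). The edgeR count was 29 without VTM_LG replicate 8 (all genes 20.3%) and fell to 8 without VTM_LG replicate 4 (all genes 8.42%), to 3 without VTM_LG replicates 4 and 7 together (beside 5.48% of all genes), and to 6 with only the 2 groups in the fit (all genes 9.26%). ENSBTAG00000043560 led the lower genes, with a log2 fold change of -0.38 (edgeR adjusted p = 0.252) that was -0.11 without those 2 libraries. ENSBTAG00000012062 followed at -0.27, or -0.11 without them. ENSBTAG00000006745 (0.22) and ENSBTAG00000005122 (0.25) led the higher genes, and were at 0.17 and 0.15 without them.

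VTM_LG against NoVTM_LG gave 9 genes at an unadjusted edgeR p under 0.05, or 9.47% beside 8.25% of all genes, with 5 higher (all genes 4.34%) and 4 lower (all genes 3.91%), and 0 that passed, beside 0% of all genes. DESeq2 gave 11 (all genes 8.42%) and limma voom 7 (all genes 7.48%) by the same unadjusted rule. ENSBTAG00000043558 (log2 fold change 0.43) and ENSBTAG00000051412 (0.31) led the higher genes, and both were near 0 without VTM_LG replicates 4 and 7, at 0.02 and 0.06. ENSBTAG00000006745 (-0.23) and ENSBTAG00000043570 (-0.61) led the lower genes and kept their direction without those libraries, at -0.17 and -0.62. The count was then 3, beside 3.73% of all genes. Leaving out VTM_LG replicate 7 by itself gave 2 (all genes 5.76%), and leaving out VTM_LG replicate 1 gave 18 (all genes 10.5%).

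VTM_LG against NoVTM_MG gave 16 genes by that rule, or 16.8% beside 8.94% of all genes, 7 higher (all genes 5.11%) and 9 lower (all genes 3.83%), with 18 in DESeq2 (all genes 9.19%) and 11 in limma voom (all genes 7.08%), and 0 that passed in edgeR, beside 0% of all genes. ENSBTAG00000043570 had the smallest p, with a log2 fold change of -1.09 (SE 0.268, unadjusted p = 0.000255, edgeR adjusted p = 0.303), followed by ENSBTAG00000054661 at -1.13 (adjusted p = 0.373). ENSBTAG00000043560 (0.37) and ENSBTAG00000009212 (0.30) led the higher genes and were at 0.09 and 0.21 without VTM_LG replicates 4 and 7. Without them ENSBTAG00000043570 and ENSBTAG00000054661 were at -1.10 and -1.22. The count was 25 without VTM_LG replicate 1 (all genes 11.4%), 10 without VTM_LG replicate 4 (all genes 5.55%) and 9 without VTM_LG replicates 4 and 7 together, beside 4.57% of all genes.

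VTM_MG against NoVTM_MG gave 6 genes by that rule, all lower in VTM_MG, or 6.32% beside 4.57% of all genes (1.81% higher, 2.76% lower), with 11 in DESeq2 (all genes 4.69%) and 18 in limma voom (all genes 8.15%), and 0 that passed in edgeR, beside 0% of all genes. In edgeR it was 15 without VTM_LG replicate 4 (all genes 5.79%), a library of neither group that enters through the shared fit, and 15 without VTM_LG replicates 4 and 7 (beside 6.63% of all genes). It was 14 with only the 2 groups in the fit (all genes 6.03%) and 2 without NoVTM_MG replicate 2 (all genes 3.38%). ENSBTAG00000043570 and ENSBTAG00000054661 again had the smallest p, with log2 fold changes of -1.03 (SE 0.279) and -1.15 (SE 0.323), each with an edgeR adjusted p of 0.955. ENSBTAG00000005122 (0.19) and ENSBTAG00000000888 (0.27) led the genes with higher values. As above, ENSBTAG00000000888 entered the choice through its VTM levels, so its direction carries no support.

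NoVTM_MG against NoVTM_LG gave 3 genes by that rule, or 3.16% beside 4.59% of all genes, 2 higher (all genes 2.08%) and 1 lower (all genes 2.51%), with 5 in DESeq2 (all genes 4.76%) and 21 in limma voom (all genes 9.33%), and 0 that passed in edgeR, beside 0% of all genes. ENSBTAG00000009212 (-0.27) and ENSBTAG00000006393 (-0.13) led the lower genes, and ENSBTAG00000007540 (0.18) and ENSBTAG00000011559 (0.17) the higher genes, each with an edgeR adjusted p of 1.00. The edgeR count was 12 without NoVTM_LG replicate 7 (all genes 5.29%), 1 without NoVTM_LG replicate 3 (all genes 4.32%) and 5 without VTM_LG replicates 4 and 7 beside 5.72% of all genes. VTM_MG against NoVTM_LG gave 1 gene, ENSBTAG00000054661 at -0.69 (unadjusted p = 0.0385), or 1.05% beside 2.85% of all genes (1.26% higher, 1.59% lower), with 0 in DESeq2 (all genes 2.93%) and 2 in limma voom (all genes 5.07%), and 0 that passed in edgeR, beside 0% of all genes. The count was also 1 without VTM_LG replicates 4 and 7, beside 3.83% of all genes. ENSBTAG00000043570 followed at -0.55, and ENSBTAG00000000888 (0.21) and ENSBTAG00000005726 (0.06) led the genes with higher values. The same limit holds here for ENSBTAG00000000888. The pairwise contrasts share groups, so ENSBTAG00000043570 and ENSBTAG00000054661 recur in those that set VTM against NoVTM partly through the same libraries.

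The intervals of the fold changes state how large an effect on these genes the data allow. For supplementation, 85 of the 95 genes had a 95% interval that stayed inside 1.25-fold up or down (89.5%), beside 71.3% of all genes tested, and 93 stayed inside 1.5-fold, beside 91.5% of all genes. The 2 exceptions at 1.5-fold were ENSBTAG00000043570 and ENSBTAG00000054661. For gain, 80 genes (84.2%, beside 68.0% of all genes) lay within 1.25-fold and 92 within 1.5-fold (all genes 90.6%), where the 3 exceptions were ENSBTAG00000017294, ENSBTAG00000043570 and ENSBTAG00000054661. For the interaction the intervals were wider, with 16 genes (16.8%, beside 20.2% of all genes) within 1.25-fold and 80 within 1.5-fold (all genes 61.5%). All genes tested include many of far lower count, so these shares do not compare genes of like counting error.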

How the data were processed

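Liver RNA of 31 bovine fetuses was sequenced from strand-specific libraries, per the labels' protocols, and the authors deposited whole-number counts per Ensembl gene and library. The submitters' processing notes name CASAVA, FastQC 0.11.8, MultiQC 1.9, STAR 2.7.3a and edgeR. Genome build, annotation, counter and use of strand were not stated in the sources used, so overlapping genes and near-identical copies could share reads. All 31 columns matched 1 library title each and 0 were left unmapped. Replicate numbers follow accession order and pair no samples. Nothing states technical repeats, so p-values measure the spread between these fetuses.

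From the counts, CPM was computed on library totals. Genes passing filterByExpr in edgeR 4.0.16 under R 4.3.3 (minimum count 10, minimum total 15) numbered 14228. They were scaled by TMM and fitted over all 4 groups with the quasi-likelihood test, and 9 contrasts were adjusted by Benjamini-Hochberg at 0.05. DESeq2 1.42.0, limma 3.58.1 voom, other scalings, other filters, fits of 2 groups and leaving out libraries were alternatives. The limma voom fit gave each library a quality weight, so libraries that stand apart can count for less in it than in edgeR. Correlations of log2 CPM used 100000 two-sided permutations over all libraries, with group means not removed. Procedures were tested on simulated data.

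Genes named are the 20 highest, the 2 of smallest p among higher and among lower values in every contrast, the 5 most and 5 least variable within groups, the 5 most correlated pairs and those at the edge of the choice, and a few further genes of the sets, which were picked after their values were seen. The members, lists and tests were chosen with earlier results of these data known, and the sets of genes were formed after seeing the data. Gene group and marker lists could not be matched to identifiers and gave no result.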

Additional observations from a re-analysis of the deposited data

Results flagged for a closer look

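Among the 20 highest genes, 11 of 80 combinations of gene and group had 1 fetus far from the rest of its group. The measure was Dixon's ratio of the gap to the range, which chance alone passes in about 1 in 20 single combinations. The genes share the same libraries and vary together, so the 80 are not independent and their count tests no excess over chance. In 9 of the 11 the fetus was VTM_LG replicate 4. It was the lowest of its group for ENSBTAG00000000522 (54767 CPM), ENSBTAG00000017531 (3409 CPM), ENSBTAG00000022120 (2665 CPM), ENSBTAG00000013718 (1544 CPM) and ENSBTAG00000020406 (1329 CPM). It was the highest for ENSBTAG00000038748 (103383 CPM), ENSBTAG00000043561 (27259 CPM), ENSBTAG00000054499 (15237 CPM) and ENSBTAG00000011184 (6675 CPM). The other 2 were VTM_LG replicate 7, highest for ENSBTAG00000003212 (5678 CPM), and VTM_MG replicate 5, highest for ENSBTAG00000043561 (19773 CPM). Over all 95 genes there were 48 such cases in 380 combinations, 35 of them VTM_LG replicate 4.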

How the results depend on the processing

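In each of the 9 contrasts the number of the 95 genes past the adjusted threshold was 0 when any 1 library was left out (lowest 0, highest 0), and 0 under the other alternatives run. The lowest adjusted p in any of them was 0.063, for ENSBTAG00000043560 in VTM_MG against VTM_LG without VTM_LG replicate 8. With the most abundant gene taken out of both the 95 genes and the totals, the rest of the 95 held 32.5% of counts. All 95 genes held 39.3% of the full totals. The pairs of genes past the threshold numbered 892 without VTM_LG replicates 4 and 7, against 2000, and the cause was not tested. No paired analysis was possible because the replicate numbers are names given in accession order. Depth did not limit these genes, which had at least 6303 counts in every library.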
